A study of Mus musculus with 2 samples.

Results

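The 5 genes Gcg, Sst, Ppy, Pyy and Ghrl, which encode the peptide hormones of the mouse islet other than insulin and amylin, were followed through single-cell RNA libraries of isolated islets. They were found by symbol among the 32285 genes of the count matrices, and all 5 were present once. The islets came from DIO mice (the labels do not spell the abbreviation out) that received saline or an agent labelled CDS at 10 mg/kg for 2 weeks. The labels do not say what CDS is, while the series title concerns an antagonist of the alpha2A-adrenergic receptor. Pancreases were digested with collagenase, islets were isolated under a stereomicroscope and 10x Genomics 3′ libraries were sequenced, 1 library for the Saline group and 1 for the CDS group. The labels give no strain, sex, age or number of mice behind a library. With 1 library a group no test of treatment was possible, and every interval below is a 95% interval that covers counting error only.

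Islet endocrine cells are classed by the hormone they secrete. Alpha cells cut proglucagon, the product of Gcg, to glucagon, which raises hepatic glucose output. Delta cells release somatostatin, the product of Sst, which restrains the other islet cells. PP cells make pancreatic polypeptide from Ppy, a member of the neuropeptide Y family to which peptide YY, the product of Pyy, also belongs. Ghrelin, the product of Ghrl, is made mainly by the stomach and by few cells of the adult islet.

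In the mm10 annotation (GENCODE M21) Gcg (ENSMUSG00000000394) lies at chr2:62474530-62483650, Sst (ENSMUSG00000004366) at chr16:23889573-23890958 and Ghrl (ENSMUSG00000064177) at chr6:113716119-113719880. Ppy (ENSMUSG00000017316) at chr11:102099930-102101319 and Pyy (ENSMUSG00000017311) at chr11:102106676-102107832 are neighbours, 5.36 kb apart. All 5 are protein-coding and on the minus strand. Ghrl overlaps 2 genes of the plus strand, Gm26982 and Gm44033. Ppy and Pyy transcripts share no stretch longer than 10 bases, so reads of the pair are not near-identical. The windows before the start sites are shown because the paralogues Ppy and Pyy were found together in all 3 non-beta endocrine classes, whereas Gcg and Sst seldom were. They are RefSeq promoter sequences of GRCm38.p6 (mm10), minus strand, 5′ to 3′. For Gcg (chr2:62483654-62483903), Ppy (chr11:102101320-102101569) and Pyy (chr11:102107833-102108082) they end at the base before the RefSeq start. Capitals in these mark CANNTG (the E-box) and TATAAA, searched on both strands. For Sst only 30 bases are given (chr16:23890874-23890903), because the GENCODE transcript starts 114 bases upstream of the RefSeq start, and the capitals mark TGACGTCA, the cAMP response element.
Gcg: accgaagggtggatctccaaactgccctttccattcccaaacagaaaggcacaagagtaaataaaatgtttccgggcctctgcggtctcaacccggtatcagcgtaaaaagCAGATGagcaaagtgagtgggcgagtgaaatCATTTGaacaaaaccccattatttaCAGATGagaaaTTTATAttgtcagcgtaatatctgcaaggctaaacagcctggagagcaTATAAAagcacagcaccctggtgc
Ppy: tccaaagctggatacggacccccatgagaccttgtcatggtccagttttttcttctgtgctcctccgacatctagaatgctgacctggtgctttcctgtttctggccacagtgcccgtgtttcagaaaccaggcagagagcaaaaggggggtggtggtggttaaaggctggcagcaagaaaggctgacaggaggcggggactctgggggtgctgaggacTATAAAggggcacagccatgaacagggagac
Pyy: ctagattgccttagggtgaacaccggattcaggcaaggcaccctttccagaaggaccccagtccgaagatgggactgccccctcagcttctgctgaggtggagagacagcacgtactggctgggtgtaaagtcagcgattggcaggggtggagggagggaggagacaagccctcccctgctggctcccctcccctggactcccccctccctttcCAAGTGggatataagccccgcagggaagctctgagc
Sst: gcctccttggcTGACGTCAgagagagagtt
The Gcg window held 3 E-boxes, at 139, 108 and 83 bases before the start, and 2 matches to TATAAA. The Pyy window held 1 E-box and no TATAAA, and the Ppy window held 1 TATAAA and no E-box. Among 32851 RefSeq windows of 250 bases, 66.2% held an E-box, 12.4% held TATAAA and 1.55% held TGACGTCA. Of these 4 genes' windows, the Sst window held TGACGTCA and the other 3 did not. A match describes letters and says nothing of binding.

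In the Saline library 124343325 UMIs were spread over 12453 barcodes, and in the CDS library 141191447 over 7268. After filters and doublet removal 10970 and 6188 cells were kept, at medians of 9790 and 19159 UMIs, so the CDS cells were read more deeply. The libraries shared 25 barcodes. Although both samples are labelled as islet beta cells, beta-like cells were 47.4% and 53.0% of the kept cells. Cells were clustered with the hormone genes left out and scored on other markers, so that hormone levels did not form the clusters. Hormone genes still counted among the leading genes that could bar a name, so naming was not wholly blind to them. This gave 892 Saline and 937 CDS alpha-like cells, 505 and 432 delta-like cells, and 173 and 84 PP-like cells. Of 10 alpha markers, 7 were higher in alpha-like cells than in delta-like, PP-like or beta-like cells in both libraries (Irx1, Irx2 and Ttr among them), as were 6 of 8 delta markers in delta-like cells (Hhex, Ghsr and Rbp4 among them). The PP-like class is weaker: 1 of its 6 markers (Folr1) was higher there, its marker score was 0.657 against 0.574 for alpha, and Ppy and Pyy were its leading genes. It got its name after a margin between scores was dropped with the clusters in view, so its naming was not blind to hormone levels. A pair of hormone-bearing clusters stayed unnamed. Cluster 35 (7 and 52 cells, median 8.23% Gcg) scored 1.937 for acinar and 1.667 for alpha markers. Cluster 32 (40 and 73 cells) had Rbp4 and Sst as leading genes, at medians of 1.19% Sst, 13.1% Ins2 and 32627 UMIs.

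Free RNA in a droplet suspension puts hormone UMIs into every barcode. Its level was read from cells that make none of these hormones (endothelial-like, macrophage-like, dendritic-like, stromal-like and lymphoid cells, the last with 924 Saline and 21 CDS cells of 2 unnamed clusters that scored highest for T cells), called reference cells below, 3653 in the Saline and 574 in the CDS library. Their ambient share of UMIs was 0.0725% and 0.0543% for Gcg, 0.0306% and 0.0123% for Sst, 0.0826% and 0.0439% for Ppy, and 0.0598% and 0.0453% for Pyy, Saline before CDS here and throughout. The reference cells were shallower in the Saline library (median 2249 against 7647 UMIs). They also held more lymphoid cells there, with 1189 and 34 B-like and 655 and 5 T-like cells. Read from endothelial-like and macrophage-like cells only, the ambient share was higher in CDS for Gcg (0.0410% and 0.0515%) and Pyy (0.0341% and 0.0420%). For Sst (0.0185% and 0.0116%) and Ppy (0.0438% and 0.0418%) it stayed higher in Saline.

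Gcg, the glucagon gene, was highest in alpha-like cells, where it stood at 88940 CPM (UMIs of the gene scaled to a common total; 88722 to 89159) in the Saline and 103953 (103763 to 104143) in the CDS library. The median alpha-like cell gave 8.15% and 9.34% of its UMIs to Gcg, and the 5th and 95th percentiles of cells were 0.970% and 15.6% in Saline and 2.05% and 18.4% in CDS. PP-like cells came next at 5519 and 10612 CPM. That sum was carried by few cells: 10 of 173 and 6 of 84 PP-like cells held at least 50% of it, while the median PP-like cell was at 0.0378% and 0.0542%, at or below the ambient share. Delta-like cells summed to 1631 and 2184 CPM with medians of 0.0315% and 0.0404%, again at or below ambient. Among the alpha-like clusters, cluster 34 (19 and 67 cells) had the highest Gcg medians, 13.8% and 15.7%, with Ttr, Pcsk1n and Resp18 among its leading genes. Cluster 30 (82 and 63 cells) had the lowest, 1.27% and 1.94%, and was also the shallowest alpha-like cluster, at medians of 4096 and 5774 UMIs.

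Sst, the somatostatin gene, was highest in delta-like cells. There it took 62382 CPM (62162 to 62603) in the Saline and 53657 (53476 to 53839) in the CDS library, with cell medians of 5.29% and 4.58%. The next of the 4 endocrine classes, PP-like cells, had 1018 and 914 CPM, of which 3 Saline cells and 1 CDS cell held at least 50%. The median alpha-like cell had 0.0168% Sst in the Saline library, below the ambient share, and 0.0139% in the CDS library, near it. A small delta-like cluster, 36 (13 and 34 cells), was the richest in Sst (9.59% and 7.41%) and the shallowest (1593 and 2736 UMIs).

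Ppy, the pancreatic polypeptide gene, reached the highest level of any of the 5 genes. In PP-like cells it took 170638 CPM (170108 to 171169) and 248656 (247967 to 249347), and the median PP-like cell gave 16.4% and 23.5% of its UMIs to this gene. Delta-like cells followed at 13469 and 19051 CPM, and alpha-like cells at 9762 and 13609. The spread among alpha-like cells was wide: the median cell had 0.141% and 0.253%, and the 95th percentile 4.14% and 4.86%. In alpha-like cells 45 of 892 and 47 of 937 cells held at least 50% of the Ppy UMIs. Beta-like cells were at 952 and 951 CPM, with medians of 0.0367% and 0.0379%, below the ambient share.

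Pyy, the peptide YY gene, was high in all 3 non-beta endocrine classes and highest in PP-like cells. It took 92276 and 105515 CPM in PP-like cells, 41424 and 57106 in delta-like cells and 20290 and 28713 in alpha-like cells, the same order in both libraries. Beta-like cells stood far lower at 709 and 914 CPM. The median cell gave Pyy 8.23% and 9.28% of its UMIs in the PP-like, 3.61% and 5.21% in the delta-like, and 1.11% and 1.55% in the alpha-like class. In delta-like cells the median Pyy share was thus 3.61% beside 5.29% for Sst in Saline, and in CDS it was the higher of the pair, 5.21% beside 4.58%. Each 3' UMI counts 1 molecule whatever the transcript length, so Pyy and Ppy can be set against each other within a class. There were 2.08 and 2.11 Pyy UMIs for each Ppy UMI in alpha-like cells, 3.08 and 3.0 in delta-like cells, and 0.541 and 0.424 in PP-like cells. Beta-like cells gave 0.744 and 0.961, and reference cells 0.779 and 1.58. The ratios of alpha-like and delta-like cells were alike in the 2 libraries and lay above 1. Those of PP-like cells lay below 1 in both and were lower in CDS.

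**Figure D1:**
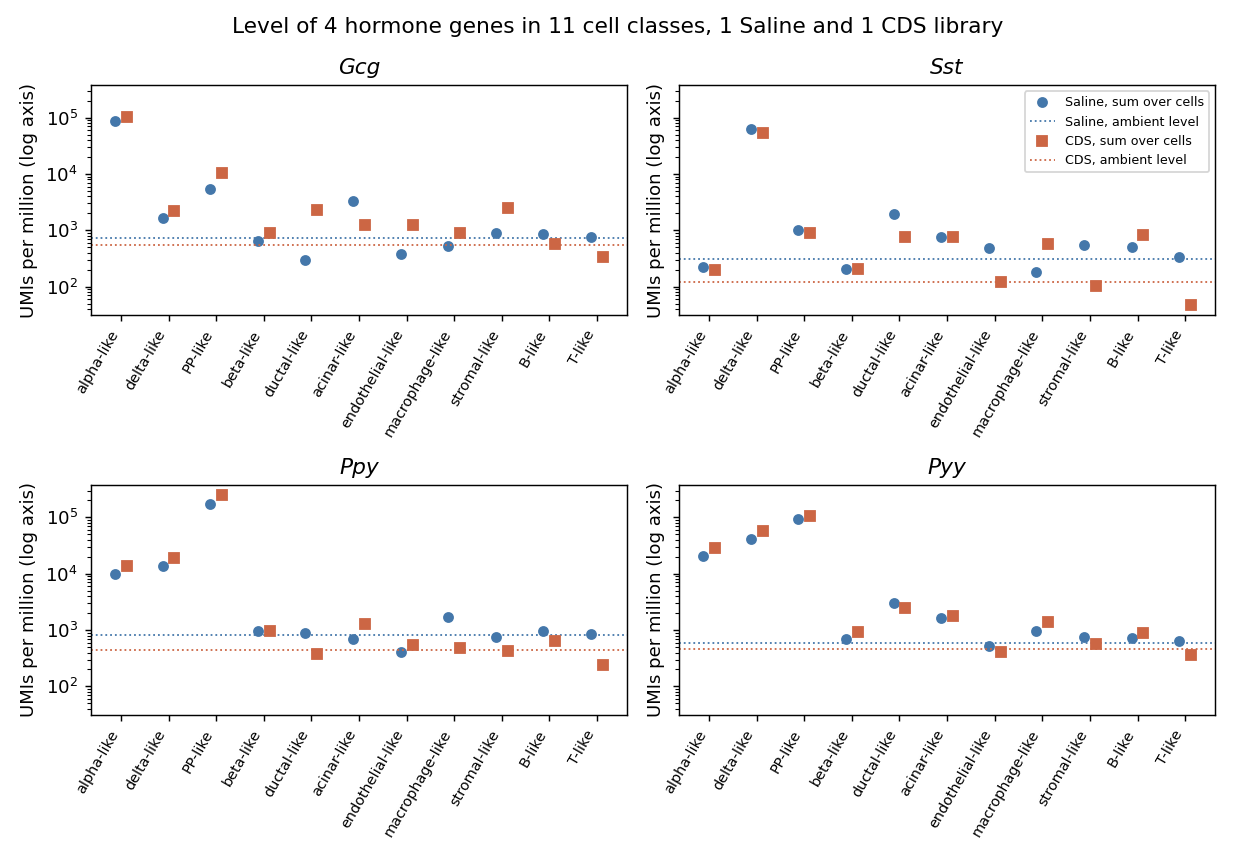
CPM (log axis) of Gcg, Sst, Ppy and Pyy summed over the cells of 11 classes in the Saline (circles) and CDS (squares) library, with dotted lines at each library's ambient level. Gcg and Sst stand out in 1 class each, Ppy peaks in PP-like cells at 170638 and 248656, and Pyy is high in alpha-like, in delta-like and in PP-like cells.

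Ghrl, the ghrelin gene, was at the edge of detection. The kept cells held 37 Ghrl UMIs in the Saline and 71 in the CDS library, and all barcodes together 42 and 81. No barcode had more than 1, so no cell could reach the 5 UMIs that a call asks for, and the share of cells that express Ghrl was not detectable at this depth. Cells with a Ghrl UMI were 0.337% and 1.15% of the kept cells. Of the cells with a UMI, 22 of 37 and 54 of 71 were beta-like, the most numerous class. Because Ghrl overlaps genes on the other strand and no source used here states how strand was counted, single UMIs were not read further.

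Several hormone genes were found in the same cells. A cell was called above the ambient level for a gene when it held at least 5 UMIs of it and more than 3 times the ambient share would give (Poisson chance under 0.0001). On this measure Pyy was above ambient in 76.3% (73.4 to 79.1) of Saline and 83.8% (81.3 to 86.1) of CDS alpha-like cells. In reference cells the share was 0.383% and 1.22%. When each cell was thinned to 5000 UMIs, which left out 115 and 84 shallower alpha-like cells, the shares were 80.7% and 82.8%. Ppy was above ambient in 29% and 47.8% of alpha-like cells (30.4% and 45.1% thinned), against 0.246% and 0.697% of reference cells. The limit was higher in Saline, where the ambient Ppy share was 0.0826% against 0.0439% in CDS. It enters the joint states below too. Read from endothelial-like and macrophage-like cells only, the ambient shares were 0.0438% and 0.0418%. At the same limit of 1% of UMIs in both libraries, Ppy was in 20.2% and 26.6% of alpha-like cells. Cells holding Gcg, Pyy and Ppy together were 27.8% (24.9 to 30.9) and 47.0% (43.7 to 50.2) of the class. Gcg and Pyy without Ppy marked 48.0% and 36.7%, and Gcg alone 20.9% and 14.5%. Ppy without Pyy was rare, at 7 cells in each library beside Gcg.

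Within alpha-like cells Ppy went with Pyy more than with Gcg. After thinning, Spearman's correlation across cells was 0.56 in both libraries for Ppy and Pyy (777 and 853 cells), 0.00 and 0.12 for Gcg and Ppy, and 0.24 and 0.41 for Gcg and Pyy. These are descriptions, since the cells share a library. In 5000 UMIs, the alpha-like cells with the least Pyy (the lowest of 3 equal parts) had medians of 3 and 4 Ppy UMIs and 371 and 365 Gcg UMIs. Those with the most had 45 and 55.5 Ppy UMIs and 463 and 569 Gcg UMIs. Of the 7 alpha-like clusters, cluster 33 (87 and 11 cells) was the richest in Ppy, at medians of 2.95% and 3.81%. The fibrinogen gene Fgb led it, its alpha score was 1.345 and its PP score 0.951. Alpha-like cells with Pyy above ambient also had more of the alpha marker Ttr (transthyretin), 7612 against 5720 and 9013 against 6728 CPM. Those cells were deeper (median 8535 against 5617 and 12266 against 8222 UMIs), and the part of depth was not tested. Split by Ppy the difference had the other sign: alpha-like cells with Ppy above ambient had less Ttr, 5913 against 7932 and 7977 against 9612 CPM, and the 10 alpha markers summed to 9245 against 11501 and 11419 against 13380.

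In delta-like cells the second hormone gene was almost universal. Pyy was above ambient in 93.7% (91.2 to 95.6) and 98.8% (97.3 to 99.6), and 96.7% and 99.5% after thinning. Ppy was above ambient in 63.0% (58.6 to 67.2) and 78.5% (74.3 to 82.3), and 63.9% and 76.6% after thinning. The triple state of Sst, Pyy and Ppy held 61.4% and 77.3% of the class. The correlation of Ppy and Pyy was weaker here than in alpha-like cells, 0.16 and 0.22, and for Sst and Ppy it was -0.05 in both. Gcg was above ambient in 7 of 505 and 8 of 432 delta-like cells. Those few cells were deep (median 19147 and 25396 UMIs, against 9590 and 14346 for the others) and had high doublet scores (median 0.213 and 0.139 against 0.0178 and 0.0210), a higher Scrublet score meaning that a cell lies nearer to simulated doublets. Delta-like cells with Ppy had no such gap, with median scores of 0.0198 and 0.0210 against 0.0152 and 0.0197 without it.

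Over all kept cells, whatever their class, pairs of hormones at 1% or more of a cell's UMIs gave the same picture. Gcg and Sst met in 13 Saline and 10 CDS cells, which were 1.38% and 0.945% of the Gcg-rich and 2.55% and 2.13% of the Sst-rich cells. Their median doublet scores were 0.248 and 0.158 and their median depths 20482 and 34072 UMIs. Gcg and Ppy met in 215 and 299 cells, or 22.8% and 28.3% of the Gcg-rich and 31.2% and 42.4% of the Ppy-rich cells. Those had median scores of 0.0286 and 0.0309, close to the 0.0251 and 0.0232 of Gcg-rich cells without Ppy. Ppy and Pyy met in 90.9% and 91.5% of the Ppy-rich cells. Sst and Pyy met in 89.8% and 94.0% of the Sst-rich cells.

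**Figure D2:**
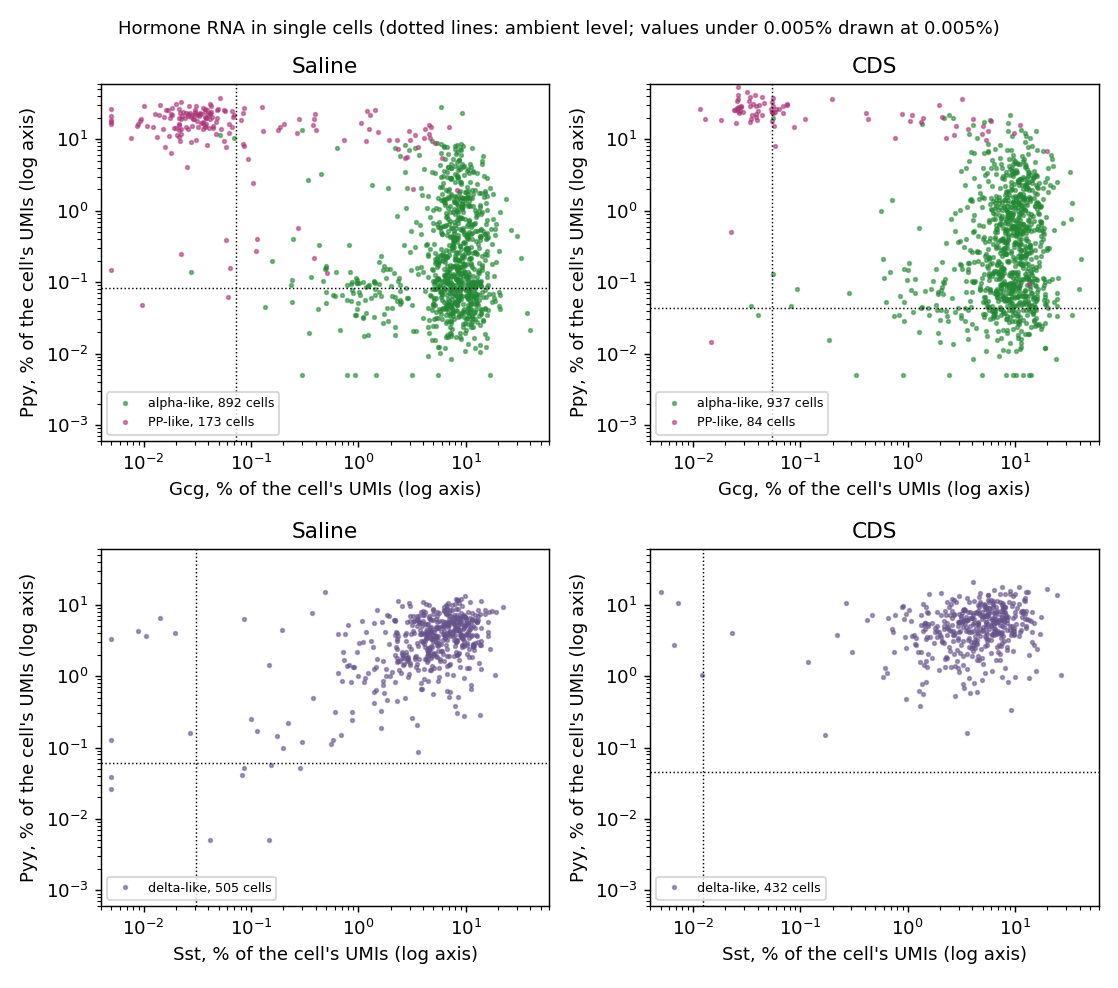
Share of each cell's UMIs (log axes) given to Gcg and Ppy in alpha-like and PP-like cells (top) and to Sst and Pyy in delta-like cells (bottom), Saline left and CDS right, 1 point per cell, dotted lines at the ambient share. Ppy spreads widely among alpha-like cells (5th to 95th percentile 0.0218% to 4.14% in Saline), and PP-like cells form a cloud at the ambient Gcg share with a tail toward alpha-like cells.

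Gcg in PP-like cells was above ambient in 29 of 173 Saline cells, 16.8% (11.5 to 23.2), and in 25 of 84 CDS cells, 29.8% (20.3 to 40.7), intervals that overlap. Their depth and doublet scores were near those of the other PP-like cells (12554 against 11582 and 17313 against 20224 UMIs, scores of 0.0367 against 0.0329 and 0.0400 against 0.0564). Alpha markers other than Gcg were higher in them: 8 of 10 in Saline and 10 of 10 in CDS, summing to 4383 against 2933 and 4960 against 2725 CPM. Ttr had 2000 against 1118 and 2590 against 1157 CPM. The beta markers also summed higher in them, to 400 against 181 and 317 against 119 CPM, but only 4 and 5 of the 8 were higher. The delta markers summed higher in Saline (1052 against 516, with 4 of 8 higher) but not in CDS (512 against 522, with 2 of 8). PP markers summed to 1184 against 1285 and 1131 against 987. Gcg and Ppy opposed each other across thinned PP-like cells, with a correlation of -0.30 and -0.48. These cells sat at a border of the classes. At a clustering resolution of 2, only 4 of the 29 and 5 of the 25 stayed PP-like, and 3.15% and 8.06% of that smaller PP-like class had Gcg above ambient. Most of the rest (22 and 19 cells) joined a separate cluster of 97 Saline and 25 CDS cells that could not be named, with an alpha score of 1.08 and a PP score of 0.885. That cluster had medians of 4.72% and 4.94% Gcg, 5.28% and 13.8% Ppy and 4.66% and 8.12% Pyy, and 65 and 21 of its cells had Gcg and Ppy both at 1% or more. Its median doublet scores were 0.0279 and 0.0375. Sst above ambient was seen in 7 and 2 PP-like cells, at median scores of 0.258 and 0.186.

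Over all beta-like cells the 4 genes were seldom above ambient, but the cells that held them were unevenly spread over clusters. Pyy was above it in 2.56% and 4.20%, Ppy in 2.17% and 3.17%, Gcg in 0.635% and 1.80% and Sst in 0.269% and 1.31%. Cluster 11 (297 and 124 cells, led by Pde3a) had Pyy in 33.0% and 49.2% and Ppy in 27.9% and 37.9%, and held 98 of the 133 Saline and 61 of the 138 CDS beta-like cells with Pyy. Its median cell gave 15.4% and 12.7% of its UMIs to Ins2, against 24.2% and 27.3% over all beta-like cells, and its beta score was 1.005. Cluster 14 (124 and 54 cells) had Gcg in 12.9% and 29.6%. In the cluster with the most Saline cells (2689 and 473 cells) Pyy was above ambient in 0.149% and 0.634%. The beta-like cells with Gcg were shallow, at medians of 5010 and 5319 UMIs against 15218 and 27049 for the rest. After thinning, the Gcg shares were 0.358% and 1.04% and the Pyy shares 2.25% and 2.95%. Thinned reference cells had 0.628% and 1.94% for Gcg and 1.41% and 0.969% for Pyy, so the thinned Gcg share over all beta-like cells was at or below background. In ductal-like cells the Pyy sum (3048 and 2449 CPM) came to at least 50% from 1 cell in each library.

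**Figure D3:**
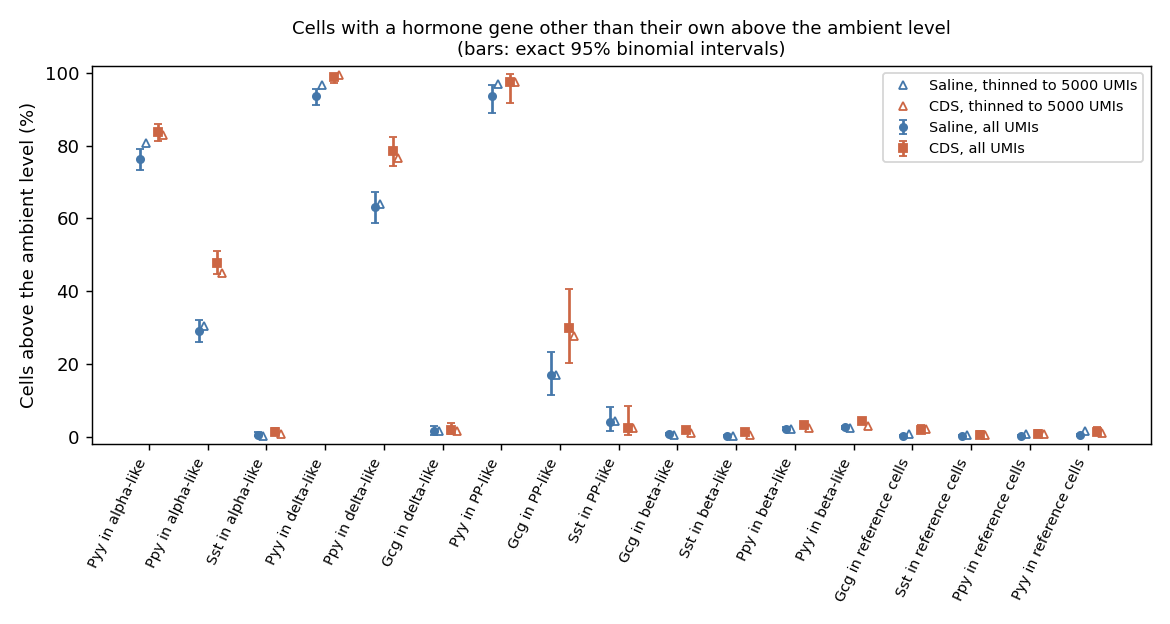
Percent of cells with a hormone gene other than their own above the ambient level, by class and library, with exact 95% binomial intervals (filled symbols) and the share after thinning to 5000 UMIs (open triangles). Pyy is the most widespread, from 76.3% of Saline alpha-like to 98.8% of CDS delta-like cells, while beta-like and reference cells stay under 5%.

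The CDS and Saline libraries were then compared within classes. Ratios are CDS over Saline of class sums, scaled by TMM factors that set the bulk of genes near 1. Plain CPM lowers all ratios of a class, since the median gene moves from a log2 ratio of 0.05 to -0.10 in alpha-like, from 0.01 to -0.11 in delta-like and from -0.01 to -0.32 in PP-like cells. Both scalings are therefore given. The counting intervals are narrow and leave out differences between mice, so they do not show a treatment effect. A gene is called higher where its ratio is at least 25% above 1 and lower where it is at least 20% below 1, which took 25.8% and 14.8% of genes with 50 or more UMIs in alpha-like cells, 22.3% and 19.3% in delta-like cells and 26.5% and 25.9% in PP-like cells. With plain CPM it took 16.7% and 27.4%, 14.4% and 29.2%, and 10.7% and 49.8%.

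The 4 genes were first compared in the class where each was highest. Gcg in alpha-like cells had a ratio of 1.30 (1.293 to 1.301), which was 1.17 with plain CPM and then not called. It was not called with a looser (1.19) or a stricter cell filter (1.20) either. Sst in delta-like cells had 0.938 (0.933 to 0.942), or 0.860 plain, the only one of these 4 ratios below 1. Ppy in PP-like cells had 1.81 (1.80 to 1.82), or 1.46 plain. Pyy in PP-like cells had 1.42 (1.41 to 1.43), or 1.14 plain and then not called. In alpha-like and in delta-like cells Pyy and Ppy had similar ratios. In alpha-like cells their ratios were 1.57 and 1.55 (1.42 and 1.39 plain), and in delta-like cells 1.5 and 1.54 (1.38 and 1.41 plain). Of the 4 members with 50 or more UMIs, Gcg, Ppy and Pyy were thus called higher in each of the 3 classes with TMM scaling and Sst in none. Gcg in delta-like cells (1.46, or 1.34 plain) rests on few cells: 4 Saline and 3 CDS cells held at least 50% of its UMIs, and the delta-like cells with Gcg above ambient had the high doublet scores given above. Gcg in PP-like cells, which rests on the few cells described above, had the highest ratio of a member in these 3 classes, 2.39 (2.33 to 2.44), or 1.92 plain. Ratios above 1 were not particular to these classes. In beta-like cells the median cell lay below the ambient share for all 4 genes. The ratios there were 1.85 for Gcg, 1.37 for Sst, 1.34 for Ppy and 1.72 for Pyy (1.39, 1.02, 0.999 and 1.29 plain).

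**Figure D4:**
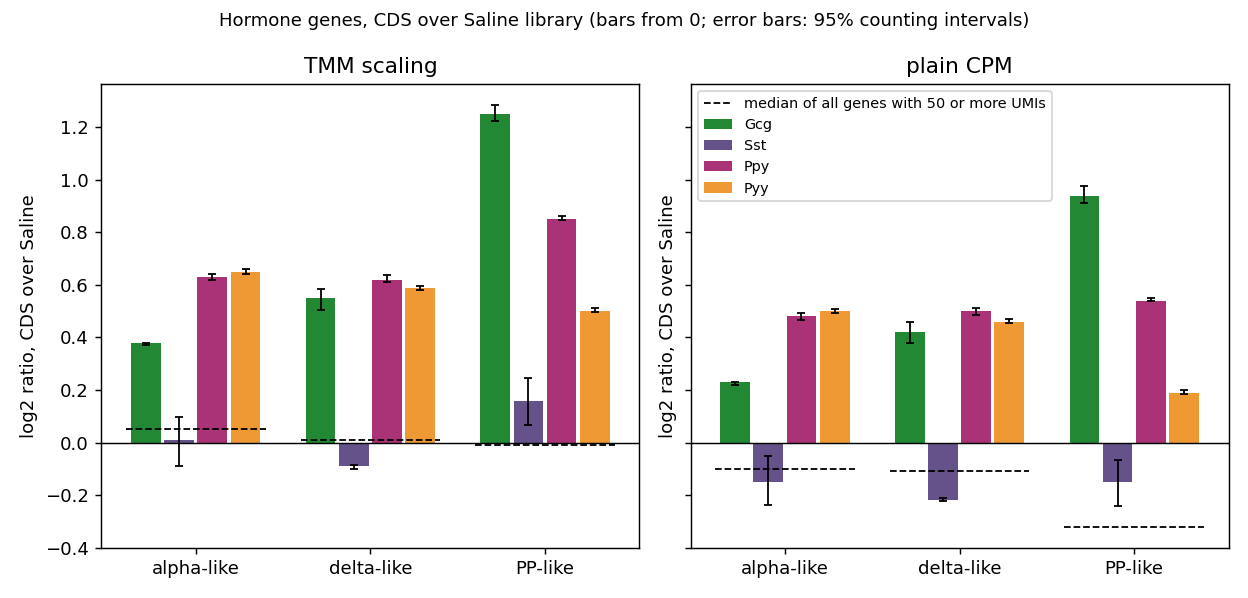
Log2 ratio of CDS over Saline for Gcg, Sst, Ppy and Pyy in 3 classes with TMM scaling (left) and plain CPM (right), as bars from 0 with 95% counting intervals, and dashed lines at the median of all genes with 50 or more UMIs. Ppy and Pyy lie above the dashed line in every class under both scalings, and Sst in delta-like cells lies below it under both.

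The largest alpha-like and the largest delta-like cluster differed between the 2 libraries, so medians were also read within clusters. Cluster 25 held 403 of 892 Saline alpha-like cells, and cluster 26, led by Gcg, 396 of 937 CDS cells. Gcg medians were higher in CDS in 4 of the 7 alpha-like clusters and lower in 3, among them clusters 25 (8.24% and 7.51%) and 26 (11.2% and 11%). Pyy medians were higher in CDS in 6 of 7, the exception being cluster 33 with its 11 CDS cells, and Ppy medians in 7 of 7. Most Saline delta-like cells lay in cluster 24 (462 of 505) and most CDS ones in cluster 29 (217 of 432). Within each of the 3 delta-like clusters Sst was lower in CDS and Pyy and Ppy were higher. In cluster 24, for example, the medians were 5.19% and 4.4% for Sst, 3.60% and 4.88% for Pyy, and 0.785% and 1.43% for Ppy. PP-like cells formed 1 cluster.

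**Figure D5:**
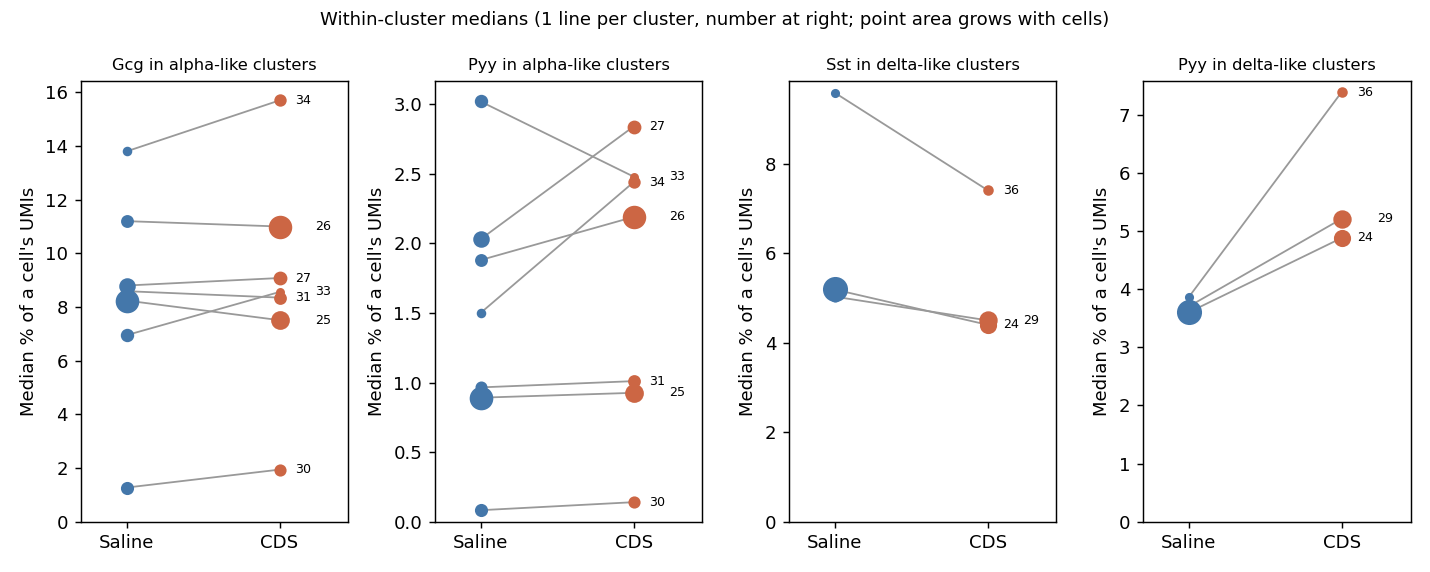
Median percent of a cell's UMIs in the Saline and CDS library within each alpha-like cluster (Gcg and Pyy) and delta-like cluster (Sst and Pyy), 1 line per cluster with its number, point area growing with the number of cells. The Gcg lines slope both ways, the 3 Sst lines slope down from Saline to CDS and the 3 delta-like Pyy lines slope up.

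RNA of other cells also differed between the libraries. The 7 acinar markers, digestive enzyme genes, summed to 181 and 352 CPM in alpha-like, 207 and 481 in delta-like and 147 and 241 in PP-like cells, with none at 0, against 166309 and 242182 in acinar-like cells. Acinar genes were called higher in 9 of 9, 8 of 9 and 5 of 6 measured (8, 8 and 5 plain). The 6 B cell markers went the other way, at 22.0 and 1.81 CPM in alpha-like, 21.1 and 1.76 in delta-like and 19.3 and 0 in PP-like cells, with 6 of 6 at 0 in the last. Ins2 and Ins1, the insulin genes, had ratios of 1.22 and 1.26 in alpha-like and 1.29 and 1.27 in delta-like cells. With plain CPM these were at most 1.18 (Ins2 in delta-like cells), and none was called. In PP-like cells Ins2 had 1.02 and Ins1 1.16 (0.822 and 0.932 plain), not called under either scaling. The ambient Ins2 share was 2.9% and 1.57%, or 1.54% and 1.42% when read from endothelial-like and macrophage-like cells only. The part of this RNA in the hormone ratios was not tested. Subtracting the ambient share from Gcg in alpha-like, Sst in delta-like, and Ppy and Pyy in PP-like cells left ratios of 1.17, 0.862, 1.46 and 1.15. Without subtraction they were 1.17, 0.860, 1.46 and 1.14. These genes stood there at 123 and 191, 204 and 435, 207 and 567, and 154 and 233 times the ambient share. Subtraction could thus move these ratios little, and it was not done for other classes.

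Genes around the hormones were read from lists, to be set beside the shares of all genes. Of all genes, 25.8% were called higher and 14.8% lower in alpha-like cells. In delta-like cells these shares were 22.3% and 19.3%, and in PP-like cells 26.5% and 25.9%. With plain CPM they were 16.7% and 27.4%, 14.4% and 29.2%, and 10.7% and 49.8%. They apply to each list below. Of 17 measured alpha cell regulators and markers, 9 were called higher in alpha-like cells and none lower, at a median log2 ratio of 0.34 (3 and 1, median 0.19, with plain CPM). Slc38a5, a glutamine transporter, went from 26.9 to 38.3 CPM (ratio 1.58, 1.33 to 1.88). In PP-like cells 5 of 14 of this list were higher and none lower (1 and 4 plain). Ttr was at 1270 and 1523 there, and at 1118 and 1157 in the PP-like cells without Gcg above ambient. In delta-like cells 3 of 14 of this list were higher and 1 lower (2 and 1 plain). There Ttr was at 393 and 469 and Rfx6, an endocrine transcription factor, at 504 and 368.

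Of 10 measured delta cell regulators and markers, 1 was higher and 3 were lower in delta-like cells (0 and 3 plain). Rbp4, retinol-binding protein, had 4101 and 4961 CPM (ratio 1.32), and Casr, the calcium-sensing receptor, 68.5 and 42.8 (0.681, 0.578 to 0.802). Hhex, a transcription factor that delta cells need, was at 113 in both. In alpha-like cells 3 of 7 of this list were higher and 1 lower (0 and 2 plain), with Ffar4 at 26.6 and 32.6 and Isl1 at 137 and 166. In PP-like cells it was 4 and 2 of 7 (1 and 2 plain), with Ffar4 at 25.8 and 36.3.

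Among 16 prohormone processing and granule genes, 4 were higher and 3 lower in alpha-like cells (4 and 3 plain). With TMM scaling these counts were near the shares of all genes there, 25.8% and 14.8%. In delta-like cells 3 were higher and 1 lower (3 and 3 plain), where the shares of all genes were 22.3% and 19.3%. Of 15 measured in PP-like cells, 4 were higher and 2 lower, which turned to 3 and 7 with plain CPM. Resp18, a granule protein, was higher in all 3 classes: 829 and 1493, 1305 and 1934, and 1008 and 1738 CPM in alpha-like, in delta-like and in PP-like cells. Pcsk1n, the inhibitor of a prohormone convertase, was at 1272 and 2246 in alpha-like and 871 and 1351 in PP-like cells. Ptprn2, a granule membrane protein, was lower in all 3: 4015 and 2460, 2788 and 1671, and 2264 and 1106. The convertase gene Pcsk2, which cuts proglucagon in alpha cells, was at 4599 and 4473 in alpha-like cells (ratio 1.08).

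Receptors for these hormones were low, some in 1 class and some in several. Gcgr, the glucagon receptor, was highest in beta-like cells (33.0 and 26.5 CPM), as was Glp1r (204 and 147), which delta-like cells also had (48.4 and 43.4). Sstr2 was highest in alpha-like cells (15.9 and 16.3), and Sstr3 had 52.3 to 82.5 CPM in all 4 endocrine classes. Ghsr, the ghrelin receptor, was found in delta-like cells (27.8 and 24.5) and below 2 CPM in the other endocrine classes. Npy4r, the receptor of pancreatic polypeptide, had 0 UMIs in the 4 endocrine classes, as did Npy2r and Npy5r. Dpp4, the protease that trims peptide YY and the incretins, was lower in CDS in each class: 38.0 and 27.2, 107 and 64.7, and 40.3 and 24.4 CPM in alpha-like, in delta-like and in PP-like cells, with ratios of 0.794, 0.658 and 0.750. The interval of the PP-like ratio (0.520 to 1.07) included 1, and so did those of Sstr3 in delta-like (0.892 to 1.21) and PP-like cells (0.773 to 1.29). In all, 1 was called higher and 2 lower of 5 measured genes of this list in alpha-like cells (0 and 2 plain), 2 and 1 of 7 in delta-like cells (1 and 1 plain), and 0 and 1 of 2 in PP-like cells (0 and 1 plain).

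The remaining lists held other peptides and beta cell genes. Of 6 other islet and gut peptides measured in alpha-like cells 2 were higher and 2 lower (1 and 2 plain), in delta-like cells 4 of 4 were higher (0 of 4 plain), and in PP-like cells 0 of 3 passed either limit (0 higher and 1 lower plain). The 4 in delta-like cells were the insulin genes Ins1 and Ins2, Iapp and Calca. Calca had few UMIs (31 and 49), and its interval (0.849 to 2.20) included 1. Iapp, the amylin gene, had 3075 and 3437 CPM in alpha-like, 32428 and 37841 in delta-like and 4154 and 3074 in PP-like cells. Of the beta cell markers measured, 1 of 7 was higher and 2 lower in alpha-like cells (0 and 5 plain), 0 and 4 of 5 in delta-like cells (0 and 4 plain) and 0 and 1 of 4 in PP-like cells (0 and 2 plain). Ffar1 was at 27.3 and 31.1 in alpha-like cells, G6pc2 at 32.2 and 23.7 in alpha-like and 23.6 and 13.9 in PP-like cells, and Slc30a8, the granule zinc transporter, at 23.0 and 20.3 in delta-like cells.

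The genes whose level over 13 classes and 2 libraries (26 points, log2 of CPM plus 10) was most like a member were found by Pearson's correlation, as a description. For Gcg they included Igsf21 (0.937) and Eef1a2 (0.900), both highest in alpha-like cells. For Sst they were the potassium channel genes Kcnd2 (0.914) and Kcnc2 (0.901) and the adenylyl cyclase Adcy8 (0.913), highest in delta-like cells. For Ppy they were Calb1 (0.953), Cntnap5b (0.947) and Mdga2 (0.941), highest in PP-like cells. For Pyy they were Gm609 (0.957, highest in delta-like cells), Calb1 (0.940) and Tspan8 (0.940). The points of a class share cells of neighbouring type and depth, and Ghrl, at most 2.49 CPM, was given no such genes.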

How the data were processed

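The authors deposited raw UMI counts per gene and barcode, made with Cell Ranger 7.1.0 per the file headers and on mm10 per the submitters' processing notes. How barcodes were chosen before deposit is not stated in the labels or headers. The labels' protocols name 2 kit chemistries, so the chemistry is uncertain. Cells with at least 500 genes, 1000 UMIs and at most 20% mitochondrial UMIs were kept. Scrublet in Scanpy 1.11.5 called 621 Saline (5.36%) and 227 CDS (3.54%) doublets, which were removed. Both libraries were clustered together (2000 variable genes without hormones, 30 components, 15 neighbours, Leiden resolution 1), and the non-beta endocrine clusters were clustered again. A cluster took its best-scoring class from non-hormone markers unless fewer than 3 of them were detected or its top 10 genes held more markers of another class. Gcg, Sst, Ppy, Ins1 and Ins2 counted among the markers in that top 10. A name was also refused to shallow clusters, and to clusters scored as non-endocrine, that had no own marker in the top 10. A margin required at first between the best 2 classes was dropped after the clusters were seen, which is how the PP-like cluster got its name. Class sums were scaled by TMM in edgeR 4.0.16. The ambient level was a trimmed mean (0.1 at each end) over reference cells. Thinning drew 5000 UMIs a cell without replacement. Binomial intervals are Clopper-Pearson, those of counts and ratios exact Poisson. UMIs of a library are not independent animals. Members and lists were chosen with earlier results of these data known. Named genes were the members, Ins1, Ins2, up to 2 genes a list and class of largest log2 ratio at 20 CPM or more, and 3 genes of like pattern per member (50 CPM or more). Others named in passing (Hhex, Pcsk2, receptors, leading genes of clusters) were chosen after their values were seen. Some genes that the rule names are not reported here. Scripts were tested on simulated data. Alternatives used DESeq2 1.42.0 and the settings given at the end.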

Additional observations from a re-analysis of the deposited data

Results flagged for a closer look

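Barcodes that the main comparisons leave out also held hormone RNA. In 4 cases the CDS share lay above the Saline share with intervals that did not overlap. Of the barcodes that failed the filters, 11.3% (96 of 853) in the CDS and 6.50% (56 of 862) in the Saline library had Gcg at 1% or more of their UMIs. Of the called doublets, 46.7% and 18.2% had Gcg at that level, 37.9% and 17.9% had Pyy, and 19.4% and 7.25% had Ppy. The other shares did not differ in this way: among failed barcodes Sst (2.93% and 3.94%) and Ppy (5.39% and 7.19%) were lower in CDS, and the intervals of Pyy there (9.14% and 6.50%) and of Sst in doublets (15.4% and 9.34%) overlapped. Alpha-like cells were 15.1% of the kept CDS and 8.13% of the kept Saline cells. The kept Saline cells also held more lymphoid cells, which lowers the share of every other class. B-like cells were 0.549% of the CDS and 10.8% of the Saline cells, and T-like cells 0.0808% and 5.97%.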

How the results depend on the processing

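No paired analysis was possible because each group had 1 library. None of the 4 ratios below crossed 1 under the alternatives run. The ratio of Gcg in alpha-like cells (1.30) was 1.17 with plain CPM, with a mean over cells and after ambient subtraction, 1.29 with DESeq2 factors, 1.27 with factors from genes of 10 or more UMIs, 1.20 without hormone, acinar and mitochondrially encoded genes in the denominator, 1.19 and 1.20 with a looser and a stricter cell filter, 1.28 at resolutions 0.5 and 2, and 1.30 with hormones in the clustering. Sst in delta-like cells (0.938) was 0.860 plain, 0.905 as a mean over cells, 0.862 with ambient subtracted, 0.955 with DESeq2 factors, 0.877 without those genes, 0.845 and 0.903 with the looser and stricter filter and 0.948 with doublets kept. Ppy in PP-like cells (1.81) was 1.46 plain, 1.42 as a mean over cells, 1.46 with ambient subtracted, 1.83 with filtered factors, 1.66 without those genes, 1.66 and 1.73 with the 2 filters, 1.82 with hormones in the clustering and 1.78 at resolution 2. Pyy in PP-like cells (1.42) was 1.14, 1.13, 1.15, 1.43, 1.30, 1.35 (looser), 1.44 and 1.43 in turn. At resolution 0.5 no PP-like cluster formed, so no PP value exists there. Pyy in alpha-like cells was above ambient in 84.0% and 90.2% at 1 times and 54.8% and 70.0% at 10 times the ambient level, and at 1% of UMIs in 52.9% and 64.0%; the Saline share was 80.7% thinned and 80.6% with ambient RNA read from endothelial-like and macrophage-like cells only (added after seeing the data). For delta-like cells these were 95.6% and 99.8%, 87.7% and 97.2%, and 87.5% and 94.9%, and 96.7% thinned in Saline. Gcg in PP-like cells moved at resolution 2 (3.15% and 8.06%). With plain CPM the list genes called higher and lower were 16 and 14 in alpha-like cells (28 and 9 with TMM) and 10 and 17 in PP-like cells (17 and 6). The cause of these shifts was not tested. Depth limits Ghrl and the receptors, whose counts are low.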
